A study of Homo sapiens with 4 samples.

Results

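The genes described here are 46 named genes of DNA repair and of the DNA damage checkpoint, taken by symbol from a table of gene read counts in U251 cells. A row was used for 45 of the 46, out of 15575 genes in the table, and all 45 passed the filter on low counts, as did 13172 genes in all. MGMT, which removes alkyl groups from guanine, was not analysed here. The 45 genes comprise 17 of homologous recombination, 12 of the Fanconi pathway, 3 of mismatch repair, 7 of end joining and break sensing, and 6 checkpoint kinases and partners.

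U251 is an established human glioblastoma (GBM) cell line. RNA-seq was performed on 2 libraries of cells given a control short hairpin RNA by lentivirus (Ctrl, labelled pGreen) and 2 of cells given a hairpin against PRMT3 (PRMT3-KD), an enzyme that methylates arginines, 72 h after transduction by the study's account. No source used here names the hairpin in each PRMT3-KD library, and nothing says that libraries of a group came from separate cultures, so p-values measure the spread between these libraries, which may be technical. The comparison asks which transcripts change when PRMT3 is depleted.

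The libraries held 24804250 to 29756313 counts. PRMT3 itself stood at 19.3 and 19.5 CPM (read counts scaled to a common library size) in the Ctrl libraries and at 3.03 and 1.58 in the PRMT3-KD libraries, a log2 fold change of -3.08 (SE 0.314, edgeR adjusted p = 0.0177), so it was lower in both PRMT3-KD libraries and lowest in PRMT3-KD library 2. The Ctrl libraries were far closer to each other (biological coefficient of variation 0.0105) than the PRMT3-KD libraries (0.204). The 6 glial and glioma markers summed to 7320 to 8330 CPM in every library, led by VIM and CD44 at 1650 CPM or more, while GFAP stood at 13.1 and 14.3 CPM in Ctrl and at 1.26 and 5.39 in PRMT3-KD. Summed markers of neurons (2 of 3 with counts) and of immune cells (2 of 3) reached at most 30 CPM. The immune sum was nearly all CD68, which had 665 to 845 counts per library, while PTPRC had at most 7. S100B was low throughout, at 1.93 to 2.82 CPM, and RBFOX3, AIF1, PECAM1 and EPCAM were not analysed here. The epithelial sum, nearly all KRT18, was 32.4 and 34.1 CPM in Ctrl and 74.3 and 98.2 in PRMT3-KD, and the endothelial sum was 27.9 CPM in PRMT3-KD library 2 against 6.26 to 7.40 elsewhere. Fewer cells of a kind and less RNA per cell cannot be told apart in these bulk libraries.

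Cells repair broken DNA either by copying an intact sister molecule, which is homologous recombination and needs a replicated chromosome, or by joining the ends directly. The Fanconi pathway recognises crosslinks that tie the strands of DNA together and hands the resulting break to recombination, and mismatch repair removes errors left by replication. The kinases ATM and ATR sense breaks and stalled forks, and through CHEK2 and CHEK1 hold the cell cycle while repair proceeds. In glioblastoma these genes are of interest because radiation and temozolomide, the standard treatment, act by damaging DNA.

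Most repair and checkpoint genes had lower transcript levels in the PRMT3-KD libraries, and 4 of them passed the test. The 4 were FANCE and FANCM of the Fanconi pathway, RAD54L of recombination and MSH6 of mismatch repair, at 41.2% to 65.0% of their Ctrl level. The log2 fold change was below 0 in 39 of 45 genes, with a median of -0.40, where all genes tested had a median of 0.0055 and 49.5% below 0. Both PRMT3-KD values lay below both Ctrl values in 35 of the 45, a pattern that held in 33.8% of all genes tested, and both lay above in 2 (PMS2 and LIG4), against 33.3% of all genes.

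With edgeR's quasi-likelihood test and a threshold of an adjusted p under 0.05 and a change over 1.5-fold, 4 of 45 genes (8.89%) were lower, against 5.97% of all genes tested. None was higher, against 4.97% of all genes, and no gene of the 45 was higher at an unadjusted p under 0.05 either, against 19.1% of all genes. At that p 23 were lower, against 18.5% of all genes. DESeq2 and limma-voom also called 0 higher, against 6.68% and 5.98% of all genes. At an adjusted p under 0.05 and any fold, 9 were lower, against 8.91% of all genes: the 4 above and PARP1, TOPBP1, XRCC6, FANCC and ATR. DESeq2 called 14 lower at the full threshold (31.1%, against 7.95% of all genes), and limma-voom, weighting the groups by their own variance, also called 14 (31.1%, against 6.85%). When 1 library was left out, the group of 1 was taken to vary like the other group. Counts in those settings depend on which pair gave the spread, and the Ctrl pair was far closer than the PRMT3-KD pair. The median log2 fold change of the 45 genes was -0.401 with all 4 libraries, -0.395 without Ctrl library 1 and -0.416 without Ctrl library 2. It was -0.504 without PRMT3-KD library 1 and -0.32 without PRMT3-KD library 2.

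**Figure D1:**
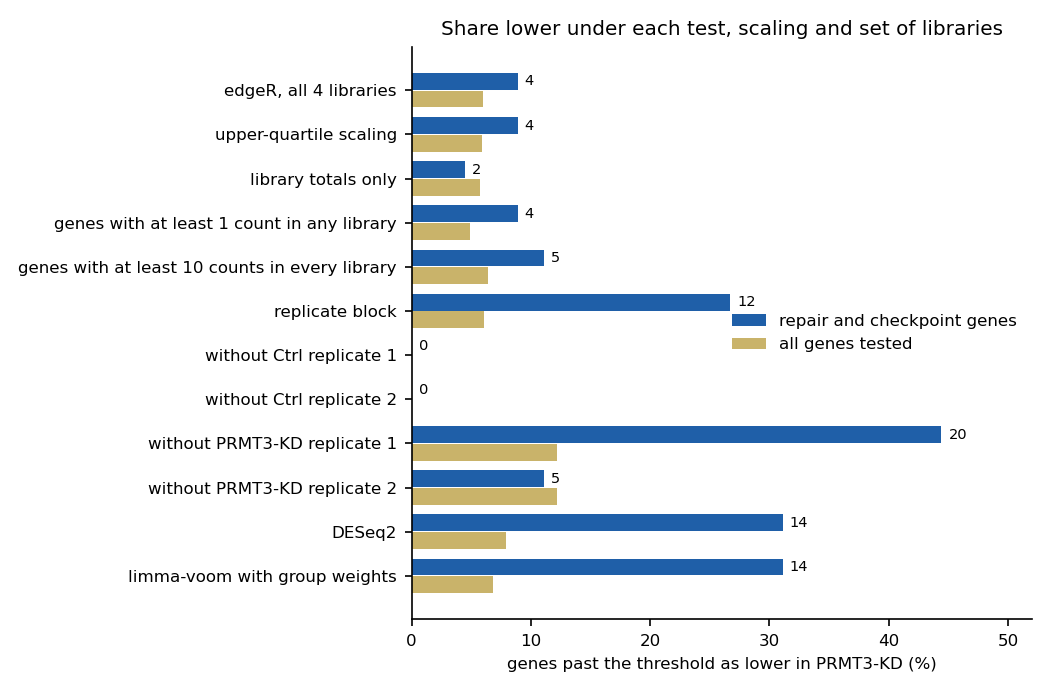
Share of the 45 repair and checkpoint genes (blue, with the number of genes) and of all genes tested (ochre) past the threshold as lower in PRMT3-KD, in percent, under each test, scaling, filter and set of libraries. The number was 4 with all 4 libraries in edgeR. Where 1 library was left out, the spread came from the other group alone, so those bars cannot be compared with the rest.

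The size of the decrease differed between the PRMT3-KD libraries. The median log2 ratio of the 45 genes to the Ctrl mean was -0.32 for the first PRMT3-KD library and -0.51 for library 2, and the level was lower in library 2 than in library 1 in 38 of 45 genes (84.4%), against 53.6% of all genes. In library 1, 5 genes lay more than 1.5-fold below the Ctrl mean, and in library 2, 20 did, against 13.8% and 14.0% of all genes. The gap between the PRMT3-KD libraries exceeded that between the Ctrl libraries in 41 of 45 genes (91.1%), against 82.7% of all genes. Its median was 0.31 against 0.049 on the log2 scale, where all genes had 0.238 against 0.053.

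**Figure D2:**
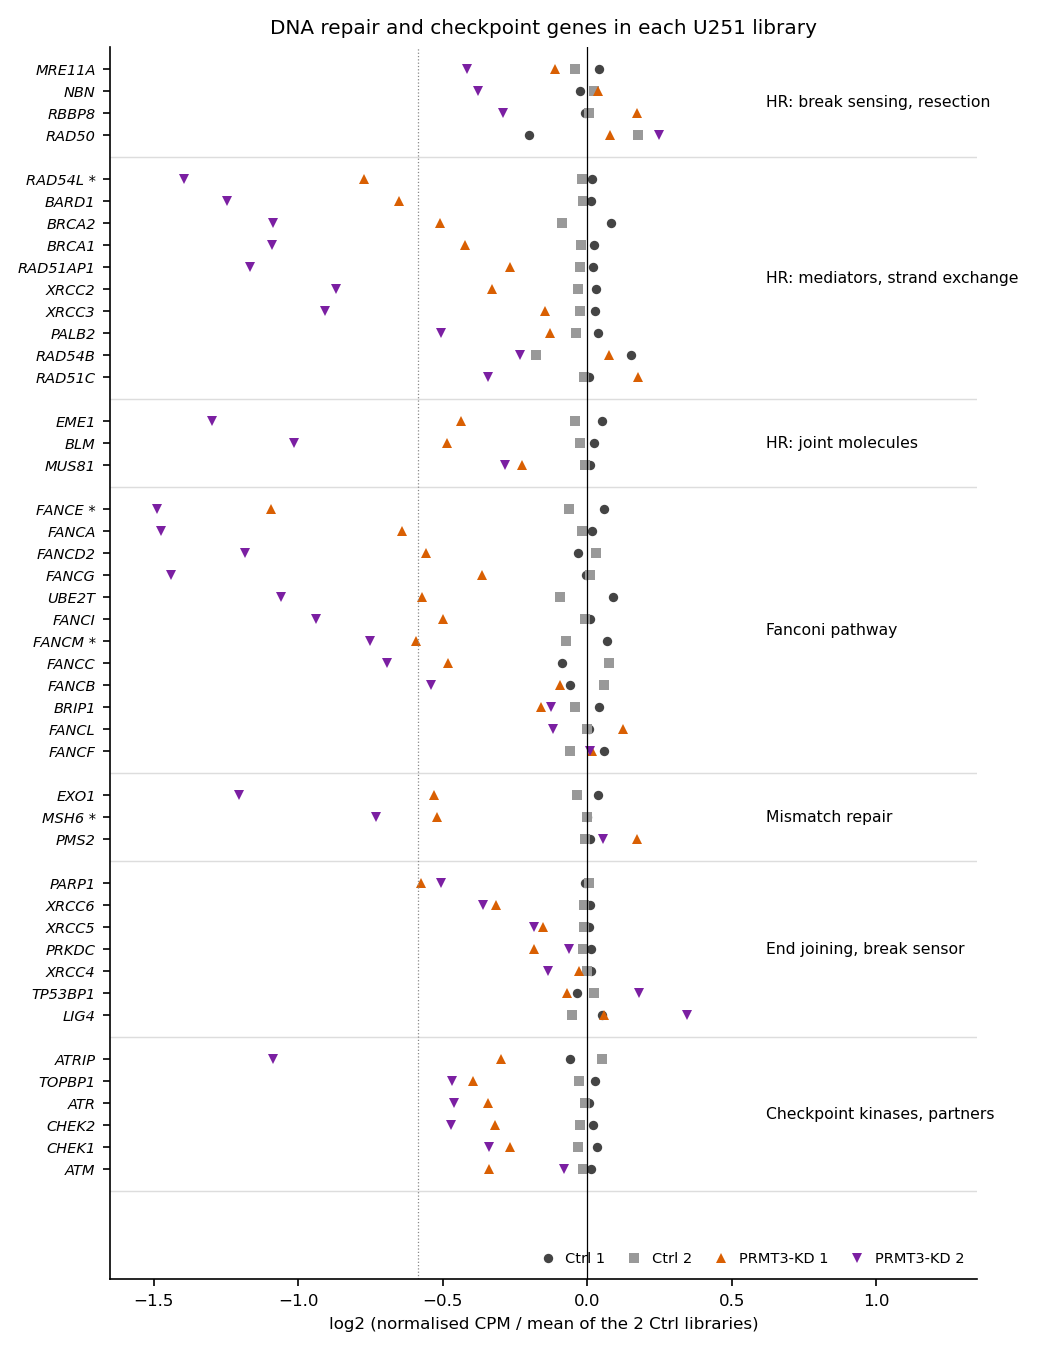
Each repair and checkpoint gene in each of the 4 libraries, as the log2 ratio of its normalised CPM to the mean of the Ctrl libraries, grouped by role. An asterisk marks the 4 genes past the edgeR threshold and the dotted line marks 1.5-fold below Ctrl; in most genes both PRMT3-KD points lie to the left of the Ctrl points, with library 2 (downward triangles) farther left in 38 of 45.

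Homologous recombination genes had their lowest fold changes among the mediators and the genes of joint molecules. Of 17 genes, 16 had a log2 fold change below 0, with a median of -0.48. As lower, 1 passed the edgeR threshold (against 5.97% of all genes tested) and 6 passed the DESeq2 threshold (against 7.95%). The edgeR count was near the share of all genes. The 4 genes of break sensing and resection had a median of -0.099. Both PRMT3-KD values were below both Ctrl values in 1 of them, against 33.8% of all genes tested. MRE11A, the nuclease of the complex that binds broken ends, stood at -0.26, its partner NBN at -0.16, and RBBP8, which starts resection of the ends, at -0.04 (edgeR adjusted p = 0.241, 0.513 and 0.888).

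RAD50, the third subunit of that complex, was measured with unusual disagreement between the Ctrl libraries. It stood at 53.8 and 70 CPM in Ctrl and at 65.4 and 73.5 in PRMT3-KD, so the groups overlapped (log2 fold change 0.17, SE 0.155, edgeR adjusted p = 0.488). Its Ctrl gap of 0.38 on the log2 scale was reached by 4 of 5644 genes with at least 1000 counts on average in Ctrl, where the median gap was 0.029. An annotated protein-coding gene on the same strand shares 91.0% of the RAD50 exon bases. No counts were matched to that gene by name, and its part in the RAD50 values was not tested.

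The mediators, which prepare single-stranded DNA for strand exchange and drive that exchange, had a median log2 fold change of -0.61. All 10 were below 0. The edgeR threshold was passed by 1 (against 5.97% of all genes) and the DESeq2 threshold by 4 (against 7.95%). Relative to the Ctrl mean the median of the 10 was -0.30 for PRMT3-KD library 1 but -0.996 for library 2. RAD54L, a motor protein that acts on the intact duplex during strand exchange (chr1:46712133-46744152 on GRCh37, plus strand), stood at 50.8 and 49.6 CPM in Ctrl and at 29.4 and 19.1 in PRMT3-KD. Both PRMT3-KD values were well below both Ctrl values, and RAD54L fell 2.07-fold (log2 fold change -1.05, SE 0.222, edgeR adjusted p = 0.0447; DESeq2 adjusted p = 0.000151). The opposite strand holds LRRC41, which covers 18.4% of the RAD54L exon bases and itself had a log2 fold change of -0.77 (edgeR adjusted p = 0.0196). The strand setting of the counting was not given in the sources used here, so reads of the overlap cannot be told apart.

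BRCA1 and BRCA2, the breast cancer susceptibility genes, were both lower in each PRMT3-KD library without passing edgeR's threshold. BRCA1, a ubiquitin ligase that favours resection and recruits BRCA2 through PALB2, stood at 60.0 and 58.1 CPM in Ctrl and at 44 and 27.7 in PRMT3-KD. The groups did not overlap, but the PRMT3-KD libraries were far apart (log2 fold change -0.72, SE 0.235, edgeR adjusted p = 0.102; DESeq2 adjusted p = 0.0171). BRCA2, which acts at the resected end before strand exchange, stood at 25 and 22.2 CPM in Ctrl and at 16.6 and 11.1 in PRMT3-KD. Again the groups did not overlap and library 2 was the lowest (log2 fold change -0.77, SE 0.219, edgeR adjusted p = 0.0783; DESeq2 adjusted p = 0.0153).

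BARD1, the obligate partner of BRCA1, came closest to the edgeR threshold among the other mediators (log2 fold change -0.92, edgeR adjusted p = 0.0541; DESeq2 adjusted p = 0.00154). RAD51AP1, which stimulates strand exchange, had -0.65, and XRCC2 and XRCC3, which assist it, had -0.57 and -0.48. PALB2, the bridge from BRCA1 to BRCA2, had -0.31. RAD51C and RAD54B were the exceptions, at -0.061 and -0.070, with PRMT3-KD library 1 inside or above the Ctrl range. Leaving out PRMT3-KD library 2 turned both to above 0, at 0.174 and 0.0705.

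The genes that resolve joined DNA molecules were lower in all 3 cases. BLM, the Bloom syndrome helicase, had a log2 fold change of -0.73 and EME1, the regulatory subunit of the MUS81 nuclease, -0.81. Both passed the DESeq2 threshold (adjusted p = 0.0126 and 0.044) but not edgeR's (0.0713 and 0.130). LRRC59 covers 10.6% of the EME1 exon bases on the opposite strand, with a mean of 353 CPM in Ctrl against 16.8 for EME1. LRRC59 had a log2 fold change of -0.53 (edgeR adjusted p = 0.0203), and its part in the EME1 values was not tested. MUS81 itself had -0.26, with 41.8 and 40.2 CPM in PRMT3-KD against 49.2 and 48.7 in Ctrl, so the nuclease and its subunit differed in size of change, a difference that was not tested.

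The Fanconi pathway held FANCE, the gene with the lowest fold change of the 45. Of its 12 genes, 10 were below 0, with a median of -0.69. Both PRMT3-KD values were below both Ctrl values in 10, a pattern that held in 33.8% of all genes tested. The edgeR threshold was passed by 2 (against 5.97% of all genes) and the DESeq2 threshold by 6 (against 7.95%). FANCE, which ties the core complex to its substrate FANCD2 (chr6:35420115-35434881 on GRCh37, plus strand), stood at 24.9 and 22.9 CPM in Ctrl and at 11.2 and 8.52 in PRMT3-KD. Both PRMT3-KD libraries were well below both Ctrl libraries, and FANCE fell 2.42-fold (log2 fold change -1.28, SE 0.168, edgeR adjusted p = 0.0212; DESeq2 adjusted p = 8.41e-07).

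FANCM, the helicase-like protein that anchors the core complex to DNA (chr14:45605133-45670093 on GRCh37, plus strand), stood at 12.7 and 11.5 CPM in Ctrl and at 8.03 and 7.18 in PRMT3-KD. The groups did not overlap, and FANCM fell 1.59-fold (log2 fold change -0.67, SE 0.140, edgeR adjusted p = 0.0439; DESeq2 adjusted p = 0.0301). It lost its call with limma-voom (adjusted p = 0.0954).

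The other core complex genes differed widely. FANCA had a log2 fold change of -0.997 and FANCG, which binds FANCA, -0.81, while FANCC had -0.58, FANCB -0.30, and FANCF and FANCL, the ubiquitin ligase subunit, 0.013 and 0.0071. FANCA was more than 1.5-fold below Ctrl in both PRMT3-KD libraries, with a log2 ratio of -1.47 in library 2 and -0.64 in library 1 (edgeR adjusted p = 0.0801; DESeq2 adjusted p = 0.00187). FANCG had -1.44 in library 2 and -0.36 in library 1. ZNF276 covers 24.4% of the FANCA exon bases on the opposite strand and had a log2 fold change of -0.28 (edgeR adjusted p = 0.140). FANCC passed the adjusted p under 0.05 but was less than 1.5-fold lower (edgeR adjusted p = 0.0476).

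The substrate pair and its ubiquitin-conjugating enzyme missed the edgeR threshold and passed that of DESeq2. FANCD2, which is ubiquitinated when forks meet a crosslink, stood at 74.7 and 77.9 CPM in Ctrl and at 51.9 and 33.6 in PRMT3-KD. The groups did not overlap, and the PRMT3-KD libraries differed widely (log2 fold change -0.84, SE 0.221, edgeR adjusted p = 0.0679; DESeq2 adjusted p = 0.0026). FANCI, the partner of FANCD2, had -0.71 (edgeR adjusted p = 0.0519) and UBE2T, the conjugating enzyme, -0.80 (0.0585), and DESeq2 called both (0.00178 and 0.00388). POLG covers 9.1% of the FANCI exon bases on the opposite strand and had a log2 fold change of -0.38 (edgeR adjusted p = 0.123). BRIP1, a helicase that binds BRCA1, differed little, at -0.14 (edgeR adjusted p = 0.298).

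Of the 3 mismatch repair genes, MSH6 fell and PMS2 did not. MSH6, a subunit of the dimer that recognises base mismatches (chr2:47922669-48037202 on GRCh37, plus strand), stood at 120 CPM in both Ctrl libraries and at 83.7 and 72.3 in PRMT3-KD. The Ctrl libraries nearly coincided and both PRMT3-KD libraries were lower, so that MSH6 fell 1.54-fold (log2 fold change -0.62, SE 0.0979, edgeR adjusted p = 0.0276; DESeq2 adjusted p = 0.000611). Without PRMT3-KD library 2 its log2 fold change was -0.52, under 1.5-fold. EXO1, a nuclease that serves mismatch repair and resection, had -0.83 and passed the DESeq2 threshold (adjusted p = 0.00879) but not edgeR's (0.0822). PMS2, the nuclease subunit that nicks the strand to be replaced, had 0.11 (edgeR adjusted p = 0.420), and 12 annotated pseudogenes of its name could share its reads.

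End joining genes had small differences from Ctrl, the largest in PARP1 and XRCC6. The 7 genes had a median of -0.12, none passed the threshold in edgeR, DESeq2 or limma-voom, and 2 of 7 were lower at an unadjusted p under 0.05, against 18.5% of all genes. PARP1, the enzyme that marks DNA breaks with poly(ADP-ribose) and the target of PARP inhibitors, stood at 246 and 248 CPM in Ctrl and at 166 and 174 in PRMT3-KD. The libraries of each group nearly coincided, and PARP1 was 1.45-fold lower, below the fold required (log2 fold change -0.54, SE 0.0692, edgeR adjusted p = 0.0208; DESeq2 adjusted p = 0.000693).

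XRCC5 and XRCC6 encode the Ku proteins, which form a ring that clamps onto broken ends. Their transcripts were the most abundant per length among the 45 genes. XRCC6, whose reads 5 annotated pseudogenes could share, stood at -0.34 on the log2 scale (edgeR adjusted p = 0.0410) and XRCC5 of -0.17 (0.150). PRKDC, the catalytic subunit of the DNA-dependent kinase that Ku recruits, stood at 449 and 441 CPM in Ctrl and at 392 and 426 in PRMT3-KD. Both PRMT3-KD values were lower by a small margin (log2 fold change -0.12, SE 0.0772, edgeR adjusted p = 0.319). XRCC4 and LIG4, which seal the ends together, had -0.083 and 0.21, and TP53BP1, which protects ends from resection, had 0.064. TUBGCP4, on the opposite strand across 29.6% of the TP53BP1 exon bases, had -0.50 (edgeR adjusted p = 0.0276). LIG4 was highest in PRMT3-KD library 2, at 31.5 CPM against 23.9 to 25.8 elsewhere. For the 7 end joining genes the order of the PRMT3-KD libraries was mixed, with library 2 below library 1 in 3 of 7, against 16 of 17 in recombination and 11 of 12 in the Fanconi pathway.

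All 6 checkpoint genes were lower in both PRMT3-KD libraries than in either Ctrl library, a pattern that held in 33.8% of all genes tested. Their log2 fold changes ran from -0.64 to -0.20 with a median of -0.40, none passed the threshold in edgeR, DESeq2 or limma-voom, and 4 of 6 were lower at an unadjusted p under 0.05 in edgeR, against 18.5% of all genes. TOPBP1, which switches on ATR, stood at 104 and 99.9 CPM in Ctrl and at 77.5 and 73.8 in PRMT3-KD. The groups were well apart, and TOPBP1 was 1.34-fold lower (log2 fold change -0.43, SE 0.0739, edgeR adjusted p = 0.0319).

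ATR, the kinase of stalled replication forks, stood at 41.6 and 41.2 CPM in Ctrl and at 32.6 and 30.1 in PRMT3-KD (log2 fold change -0.40, SE 0.0882, edgeR adjusted p = 0.0484). The groups did not overlap. CHEK1, the kinase ATR activates, stood at 62.4 and 59.7 CPM in Ctrl and at 50.7 and 48.2 in PRMT3-KD (log2 fold change -0.30, SE 0.0790, edgeR adjusted p = 0.0654). CHEK2, the kinase ATM activates, stood at 9.56 and 9.27 CPM in Ctrl and at 7.56 and 6.79 in PRMT3-KD (log2 fold change -0.39, SE 0.137, edgeR adjusted p = 0.116). In both kinases, the groups did not overlap and the libraries of a group were close. CHEK2 has 7 annotated pseudogenes that could share its reads.

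ATM, the kinase of DNA breaks, stood at 63.8 and 62.6 CPM in Ctrl and at 50 and 59.8 in PRMT3-KD (log2 fold change -0.20, SE 0.112, edgeR adjusted p = 0.259). Here PRMT3-KD library 1 was the lower of the pair, unlike in most of the 45 genes. ATRIP, the binding partner of ATR, had the lowest fold change of the 6, at -0.64 (edgeR adjusted p = 0.179), with 9.33 CPM in PRMT3-KD library 2 and 16.1 in library 1, where Ctrl had 19 and 20.5. It shares 24% of its exon bases with TREX1 on the same strand, which had a log2 fold change of -0.67 (edgeR adjusted p = 0.0386).

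**Figure D3:**
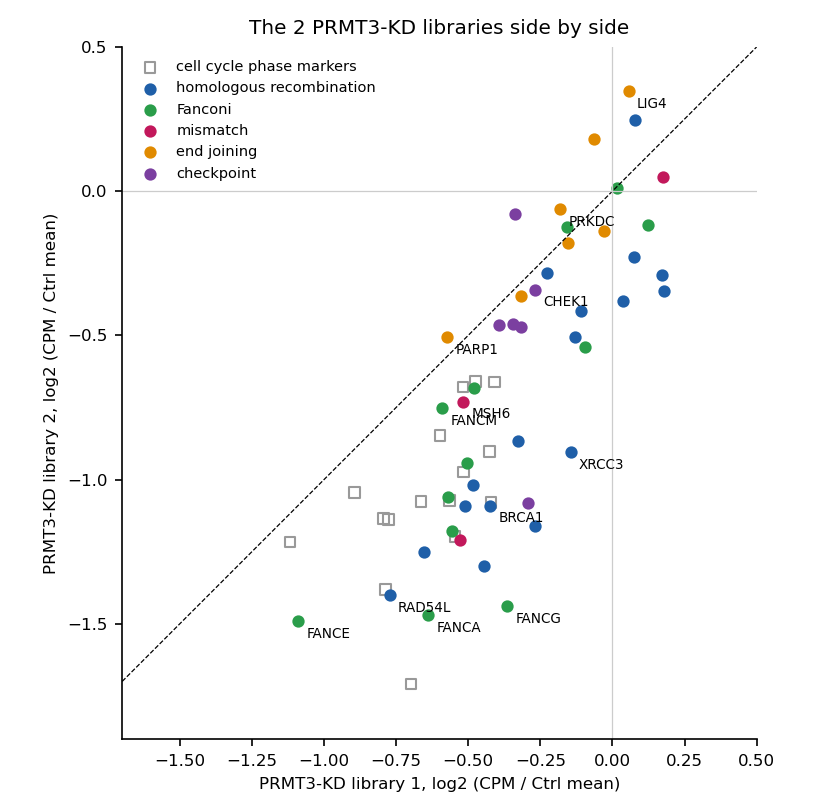
Log2 ratio to the Ctrl mean in PRMT3-KD library 1 (horizontal) and library 2 (vertical) for the 45 repair and checkpoint genes, coloured by group, and for 16 cell cycle phase markers (open squares). The dashed line marks equal change; most recombination and Fanconi genes and all 16 markers lie below it, and end joining genes lie near it.

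Transcripts of cell cycle phases were also lower. All 16 markers of replication and mitosis had a log2 fold change below 0, with a median of -0.82. The edgeR threshold was passed by 8 (against 5.97% of all genes) and the DESeq2 threshold by 14 (against 7.95%). Their median log2 ratio to Ctrl was -0.58 for PRMT3-KD library 1 and -1.08 for library 2, and library 2 was below library 1 in 16 of 16. The largest decreases past the threshold were those of TOP2A, the topoisomerase of mitotic chromosomes, at -1.17, and of the replicative helicase subunits MCM7 at -1.06 and MCM6 at -0.97. Their part in the lower levels of repair genes was not tested.

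Genes that act beside the 45 in recombination and crosslink repair had a similar centre. Of 20 tested, 19 were below 0, with a median of -0.49, and 3 fell past the edgeR threshold, against 5.97% of all genes. These were DCLRE1A, a crosslink repair nuclease, at -1.24, and RECQL5, a helicase that restrains recombination, at -0.63. The third was HELQ, a helicase of crosslinked forks, at -0.62. None was higher by edgeR at an unadjusted p under 0.05 (against 19.1% of all genes) or by DESeq2 (against 6.68%). DESeq2 called 5 lower, against 7.95% of all genes.

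Other mismatch and excision repair genes were divided. Of 38 tested, 24 were below 0, with a median of -0.17. Past the edgeR threshold 9 fell and 1 rose, against 5.97% and 4.97% of all genes. DDB2, which finds ultraviolet lesions, fell by 1.61 on the log2 scale, and FEN1, the flap nuclease of replication and base excision, fell by 1.36. ERCC6, which starts repair at stalled transcription, rose by 0.67 and is named, after its value was seen, as the one gene past the threshold in that direction. At any fold, 11 were lower and 3 higher at an adjusted p under 0.05 in edgeR, against 1173 and 1105 of 13172 genes. At an unadjusted p under 0.05, 14 were lower and 6 higher, against 18.5% and 19.1% of all genes.

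Of 17 other genes of end joining and of chromatin around breaks, 13 were below 0, with a median of -0.13. RNF168, a ubiquitin ligase that marks chromatin near breaks, fell by 1.29, H2AFX, the histone variant phosphorylated there, fell by 1.25, and MAD2L2, a subunit of the shieldin complex and of a translesion polymerase, fell by 1.03. The other 14 had no call in edgeR, where 5.97% of all genes were lower and 4.97% higher. None of the 17 was higher at an unadjusted p under 0.05 (against 19.1% of all genes) or by DESeq2 (against 6.68%).

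Other checkpoint genes included 1 that fell and 1 that rose past the edgeR threshold, against 5.97% and 4.97% of all genes. Of 13 tested, 10 were below 0, with a median of -0.26. TIMELESS, which steadies the replication fork, fell by 0.91, and WEE1, the kinase that holds CDK1 inactive before mitosis, rose by 0.93. DESeq2 called 2 lower and 1 higher, against 7.95% and 6.68% of all genes.

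Transcripts that damage signalling is known to raise did not move one way. Of 10 tested, 4 were below 0 and 6 above, with a median of 0.085. At the full threshold edgeR called 0 in either direction, against 5.97% of all genes lower and 4.97% higher. At an unadjusted p under 0.05 in edgeR, 2 were lower and 2 higher, near the shares of all genes (18.5% and 19.1%). DESeq2 called 0 lower and 1 higher, against 7.95% and 6.68% of all genes. At any fold, 2 were lower and 1 higher at an adjusted p under 0.05 in edgeR, against 1173 and 1105 of 13172 genes. The range ran from -0.59 to 1.08. Whether damage signalling raises these transcripts in U251 cells was not tested.

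**Figure D4:**
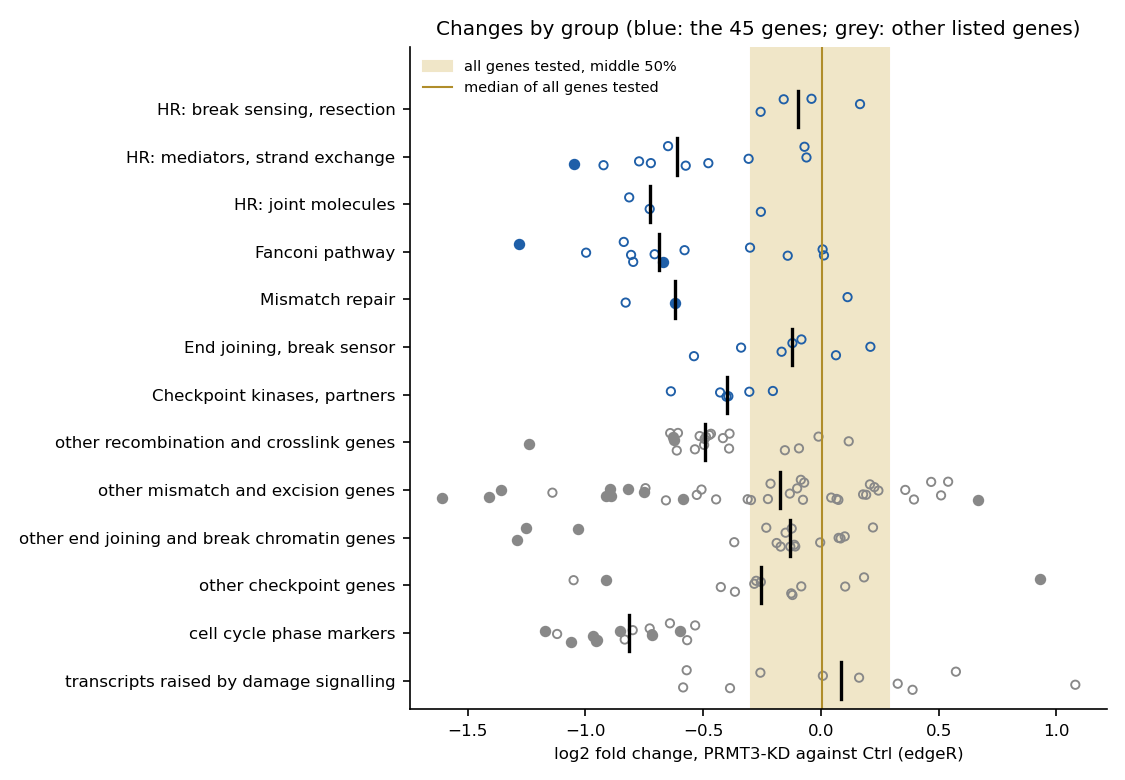
Log2 fold change of PRMT3-KD against Ctrl for each gene, by group of the 45 repair and checkpoint genes (blue) and by list of other genes (grey); filled points passed the edgeR threshold, black bars are medians, and the band holds the middle 50% of all genes tested. Medians run from -0.73 for joint molecules to -0.099 for break sensing among the blue groups, and the cell cycle markers have the lowest median, -0.82.

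Levels per transcript length were ordered differently from the changes. On the scale of CPM per kilobase of the canonical transcript, XRCC6 was highest in Ctrl at 200, followed by XRCC5 at 124, PARP1 at 62.0, UBE2T at 41.8, FANCI at 33.2 and PRKDC at 33.0. The lowest levels were those of FANCM at 1.70, BRCA2 at 1.98, FANCB at 2.49 and FANCF at 2.62. FANCI and PRKDC lay side by side in Ctrl, and in PRMT3-KD they stood at 20.4 and 30.4. FANCM, the lowest of the 45, still had 204 counts in PRMT3-KD library 2, and no gene had fewer than 147 counts in any library.

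**Figure D5:**
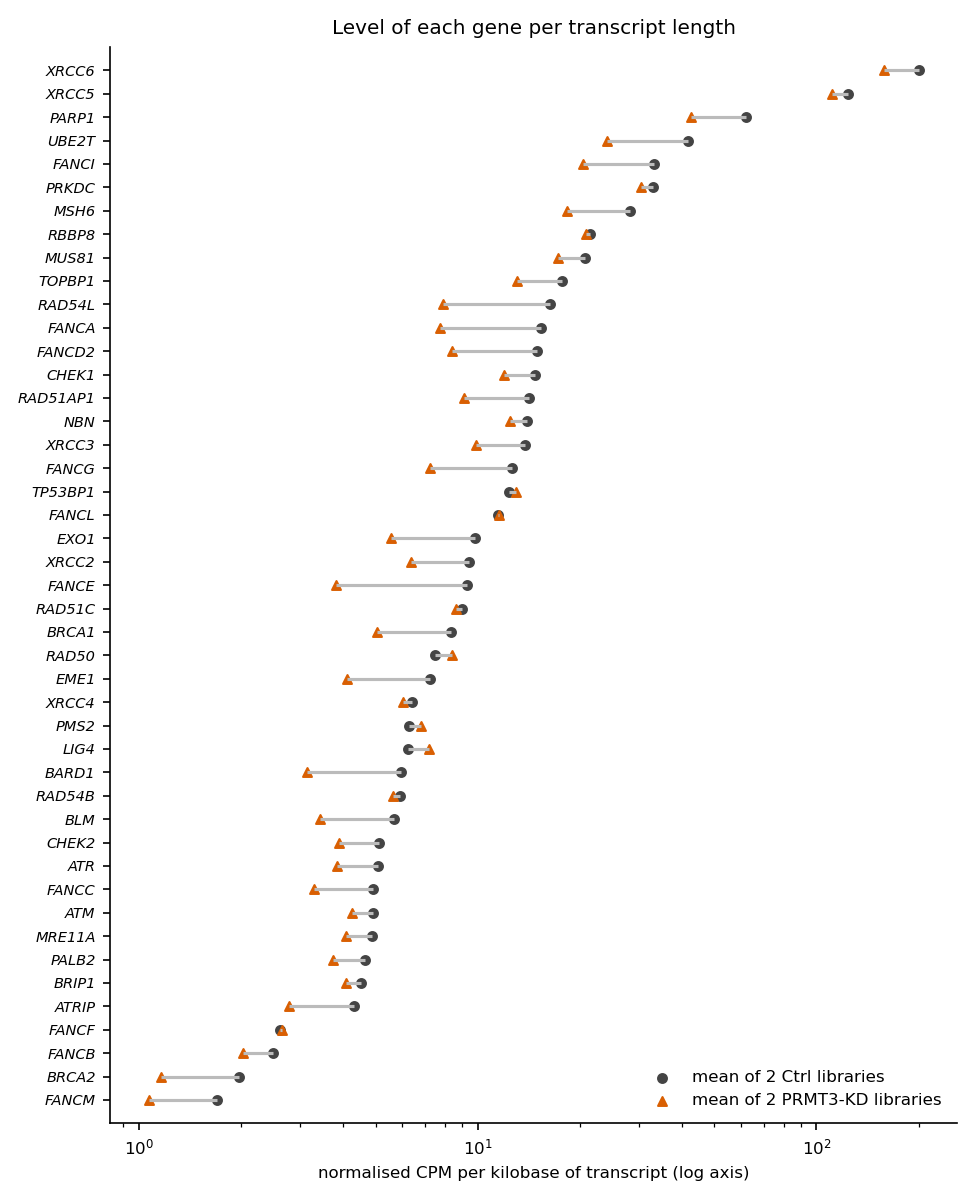
Level of each of the 45 genes in CPM per kilobase of its canonical transcript, on a log axis, as the mean of the Ctrl libraries (dark circles) and of the PRMT3-KD libraries (orange triangles). Levels run from 1.70 for FANCM to 200 for XRCC6 in Ctrl, and the triangle lies to the left of the circle in most genes.

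The promoters were searched for short motifs known from genes of replication and mitosis: E2F-type letters, CHR letters and the CCAAT box. RefSeq promoters (GRCh38.p14, 250 bases before to 50 after the gene start) were matched for 40 of the 45 genes, and each motif was sought on both strands. E2F-type letters (TTTCCCGC, TTTGGCGC, TTTCGCGC or TTTGCCGC) were found in 9 of 40 promoters (22.5%), against 5.4% of 10103 promoters of genes tested and 3.3% of all 27305. The 9 genes were EXO1, FANCA, FANCC, FANCD2, MSH6, PMS2, TOPBP1, XRCC2 and XRCC6. CHR letters (TTTGAA) were found in 4 (10%, against 10% of promoters of genes tested) and CCAAT in 21 (52.5%, against 37%). Each motif was counted on its own, matches of different motifs may overlap, and a match is a description of letters only. A single window per gene was searched, so letters near other starts of a gene were not counted.

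Stretches of 30 bases around the E2F-type letters, in the direction of the gene and with those letters or their reverse complement in capitals, are shown for 3 genes. MSH6 is the one gene past the threshold that holds such letters, and FANCA and FANCD2, chosen after their values were seen, have the lowest fold changes of the other 8. The stretches lie at chr2:47783137-47783166 (plus strand) for MSH6, chr16:89816801-89816830 (minus strand) for FANCA and chr3:10026424-10026453 (plus strand) for FANCD2.
MSH6: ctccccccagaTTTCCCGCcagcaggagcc
FANCA: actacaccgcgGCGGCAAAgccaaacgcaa
FANCD2: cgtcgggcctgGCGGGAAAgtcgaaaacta
The 9 genes with E2F-type letters had a median log2 fold change of -0.58, with 8 of 9 below 0, and the 31 without had -0.39, with 26 below 0. PMS2, which holds the letters, was above 0, and FANCE, RAD54L and FANCM, which fell, hold none in this window.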

How the data were processed

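Total RNA of 4 U251 libraries (2 Ctrl, 2 PRMT3-KD) was sequenced. The authors aligned reads to hg19 with TopHat and deposited gene read counts made with Cufflinks, not normalised; the submitters' processing notes also name CASAVA and DESeq2. Versions, annotation and strand setting were not given in the sources used here. The counts were scaled by TMM, filtered with filterByExpr (minimum count 10, minimum total 15) and tested with edgeR 4.0.16 (quasi-likelihood, Benjamini-Hochberg over 13172 genes, R 4.3.3). One duplicate entry was removed. CPM are counts scaled to a common library size. At 24804250 to 29756313 counts per library the repair genes had 147 to 12429 counts each.

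DESeq2 1.42.0, which the study used, limma 3.58.1, other scalings, filters and fold thresholds, a replicate block and leaving out each library were the alternatives. Positions and transcript lengths came from GENCODE 44 on GRCh37 and promoters from RefSeq on GRCh38.p14. The test script was checked on simulated data with the same spread in both groups, so the check does not cover the unequal spread of these groups.

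Named in full were genes past the threshold, BRCA1, BRCA2, CHEK1, CHEK2, ATM, ATR, PRKDC, PARP1, MSH6, FANCD2 and MGMT whatever they did, and the gene of smallest p in a group with none past it. Of the other lists, at most 3 genes past the threshold with the largest changes were named, and 1 such gene is not reported here. The members and lists were chosen with earlier results of these data known, so no list was tested, and counts stand beside those of all genes.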

Additional observations from a re-analysis of the deposited data

How the results depend on the processing

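The count of 4 repair and checkpoint genes lower in PRMT3-KD was 2 with library totals only, 14 with DESeq2, 14 with limma-voom, 9 with no fold threshold and 2 over 2-fold, and ran from 0 to 20 when 1 library was left out (0 without either Ctrl library, 20 without PRMT3-KD library 1). Without either Ctrl library no gene of the whole table passed as lower, so the 0 there is not particular to the repair genes. Counts with 1 library left out depend on which pair gave the spread and cannot be compared with the rest. The count of repair and checkpoint genes was 4 with upper-quartile scaling or genes of at least 1 count, and 5 with at least 10 counts in every library, adding FANCI. A block for the replicate number gave 12, 3 of them shared with the 4, against 6.08% of all genes. Whether the numbers pair the libraries is not known. The correlation across genes of the within-group differences was 0.0379 over 2 pairs, but the Ctrl libraries differed too little for it to decide. The count higher was 0 in all these settings. PRMT3 ran from -3.61 to -2.68 when 1 library was left out, and missed the threshold without either Ctrl library (edgeR adjusted p = 0.0764 and 0.0604). With library totals only, FANCF turned to -0.0181 and FANCL to -0.02, and RAD54L and FANCM lost their call (edgeR adjusted p = 0.06 and 0.0597); with limma-voom, FANCL turned to -0.00221. The causes were not tested. When 1 library was left out the sign turned in RAD50 (-0.012 to 0.367), NBN (-0.378 to 0.0322), RBBP8 (-0.287 to 0.169), RAD51C (-0.344 to 0.174), RAD54B (-0.227 to 0.103), FANCF (-0.0455 to 0.0723), FANCL (-0.115 to 0.118) and TP53BP1 (-0.0675 to 0.183). A group of 1 library was taken to vary like the other group. The median of all genes ran from -0.026 to 0.010 across scalings and tools.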
